A study of Homo sapiens with 6 samples.

Results

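ATF4 stress factors and direct outputs are described here as 10 genes chosen by symbol: ATF4, DDIT3, ATF3, TRIB3, PPP1R15A, CHAC1, ASNS, SESN2, DDIT4 and VLDLR. All 10 symbols were found among the 58174 gene IDs of the deposited transcript table, and the estimated counts of each gene's transcripts were added up. All 10 had a mean of at least 1 CPM over the columns, as did 14522 genes in all. CPM are counts scaled by TMM to a common library size.

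RNA came from MDA-MB-231, an established triple-negative breast cancer cell line. The groups were KO1 and KO2, both labelled as ARID1A knockouts, and NC, labelled as control. ARID1A is a subunit of BAF, a remodeller of chromatin. The labels list 6 samples, 2 per group, from a stranded total RNA library kit. They do not say how the knockouts were made, or whether KO1 and KO2 are clones, pools or different guides. The table holds 1 column per group, and nothing in it tells if that column is a single library or the pair merged. No spread between replicates could therefore be had, every fold below compares single columns, and intervals are exact 95% intervals that cover counting error only. KO1 and KO2 were both set against the same NC column.

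ATF4 is the transcription factor at the centre of the integrated stress response. Kinases that sense amino acid shortage, unfolded protein in the endoplasmic reticulum, viral RNA or haem loss phosphorylate the initiation factor eIF2, which lowers general protein synthesis and lets ribosomes reach the ATF4 coding sequence past short upstream reading frames. ATF4 then pairs with other bZIP proteins, often of the C/EBP family, and switches on genes for amino acid supply, redox balance, feedback on the pathway and, under lasting stress, cell death. Much of its control acts on translation, which RNA levels do not show.

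Total estimated counts were 25801499 in KO1, 26144758 in KO2 and 26798753 in NC. ARID1A itself had 45.5 CPM in KO1, 83.9 CPM in KO2 and 77.5 CPM in NC, so the KO2 column was not below NC in the RNA of the labelled gene. The direction of every KO2 difference is therefore that of the column labelled KO2. Genes encoded in mitochondria took 20.5% of counts in KO1, 16.9% in KO2 and 12.8% in NC. With those genes left out of the scaling, the same number of the 10 genes passed the size rule described below in every comparison. The line's markers VIM, CD44 and AXL were abundant, the lowest value being 664 CPM of CD44 in KO2. PGR was at 0 and CDH1 at 1.07 CPM or less, while ERBB2 had 27.9 CPM in KO1, 52.4 CPM in KO2 and 75.9 CPM in NC. The 4 leukocyte markers summed to less than 1 CPM in every column. The 3 fibroblast markers summed to 49.96 CPM in KO1, 38.7 CPM in KO2 and 30.7 CPM in NC, and their part in the results was not tested. They did not go together: COL1A1 had 49.5 CPM in KO1, 36.3 CPM in KO2 and 19.8 CPM in NC, PDGFRB had 0.432 CPM in KO1, 2.39 CPM in KO2 and 10.9 CPM in NC, and DCN was at 0. A bulk value cannot tell fewer expressing cells from less RNA per cell.

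Promoter letters were read for the 10 genes from RefSeq (GRCh38.p14), in windows of 250 bases before to 50 bases after each RefSeq start. The ATF4-C/EBP composite element, searched as TGATGNAA on both strands, occurred in 3.62% of 35116 such windows. Some genes have several windows: by gene, 4.46% of 27305 held it in any window, as did 3 of the 10, ASNS, CHAC1 and ATF3. For TRIB3, DDIT3 and ATF3 the most counted transcript began 678, 2771 and 6348 bases from the nearest RefSeq start. The windows did not cover those transcript starts. The cyclic AMP response element TGACGTCA, which reads the same on both strands, occurred in 1.85% of windows, in 2.25% of genes, and in 1 of the 10, PPP1R15A. The ER stress response element, CCAAT and CCACG with 9 bases between them, on both strands, occurred in 0.0769% of windows and in none of the 10 genes. The matched stretches of ASNS, CHAC1 and PPP1R15A are shown because they hold the letters that ATF4 and related bZIP factors are known to read. Capitals mark the match, and each stretch is written in the direction of its gene.
ASNS: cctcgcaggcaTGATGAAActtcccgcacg
CHAC1: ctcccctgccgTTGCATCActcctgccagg
PPP1R15A: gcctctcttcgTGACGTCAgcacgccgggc

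The ASNS stretch is chr7:97872458-97872487 on the minus strand, with its match at positions -68 to -61 from the RefSeq start. The CHAC1 stretch is chr15:40953251-40953280 on the plus strand, with its match at positions -209 to -202, read on the opposite strand. Both stretches lie inside the annotated gene span, since other transcripts of these genes start further upstream. The transcript ASNS-202 starts at 97872471, inside the ASNS match, so for it the match is not upstream. The PPP1R15A stretch is chr19:48872352-48872381 on the plus strand, before the annotated gene, with its match at positions -58 to -51. The ATF3 match lay at an upstream start whose 2 transcripts had 0 counts in KO1, 1 in KO2 and 0 in NC, so it is not printed. For ASNS and CHAC1 too, the transcripts nearest these starts carried most counts in KO1 but not in every column, as given with the transcripts. A match is a description of these letters and does not show that a factor was bound.

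In KO1 nearly the whole group was higher than in NC. The size rule asked for a log2 fold of 1 or more in either direction (prior count 2) and an interval that excluded equality. By this rule 9 of the 10 genes were higher in KO1 than in NC and 0 were lower, where 15.2% of all 14522 genes were higher and 17.7% lower. The median log2 fold of the 10 genes was 2.91, beside -0.025 over all genes. All 10 intervals lay above equality, and ATF3 was the gene that missed the size threshold.

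KO2 did not share this shift. Only VLDLR passed as higher than in NC, where 11.0% of all genes did, and ATF3 and TRIB3 passed as lower, where 10.1% did. These shares are near the background. The median log2 fold of the 10 genes was -0.12, beside -0.0073 over all genes. Their counting intervals lay above equality for 3 genes, DDIT3, DDIT4 and VLDLR, below it for 5, ATF4, ATF3, TRIB3, ASNS and SESN2, and spanned it for PPP1R15A and CHAC1. VLDLR was the 1 gene of the 10 that passed as higher in both knockout columns, where 6.18% of all genes did, and 0 passed as lower in both, where 5.78% did.

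Between the columns of the same labelled genotype, 9 of the 10 genes were higher in KO1 than in KO2, where 11.1% of all genes were, and 0 were lower, where 15.1% were. The median log2 fold of KO1 over KO2 was 2.79, beside -0.043 over all genes. The 10 genes together took 3727 TPM in KO1, 929 TPM in KO2 and 892 TPM in NC. TPM is the authors' unit, scaled for transcript length and to the same total in each column.

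**Figure D1:**
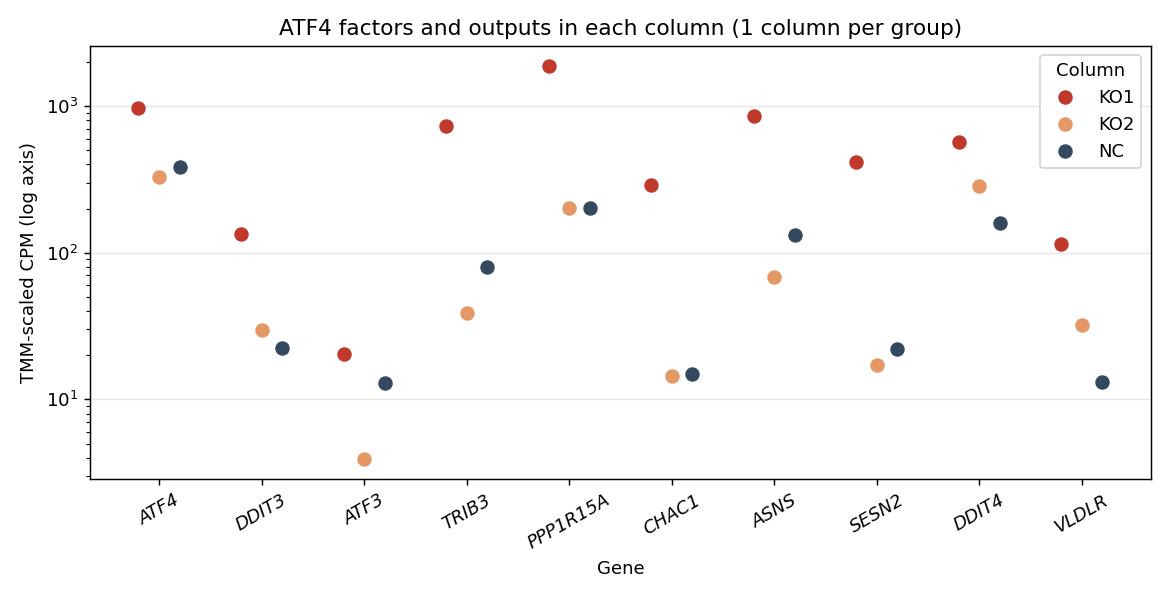
TMM-scaled CPM (log axis) of the 10 genes in the KO1, KO2 and NC columns, 1 point per column with no replicate error. The KO1 point is the highest for every gene, and the KO2 point lies below NC for 7 genes, by more than counting error for ATF4, ATF3, TRIB3, ASNS and SESN2.

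**Figure D2:**
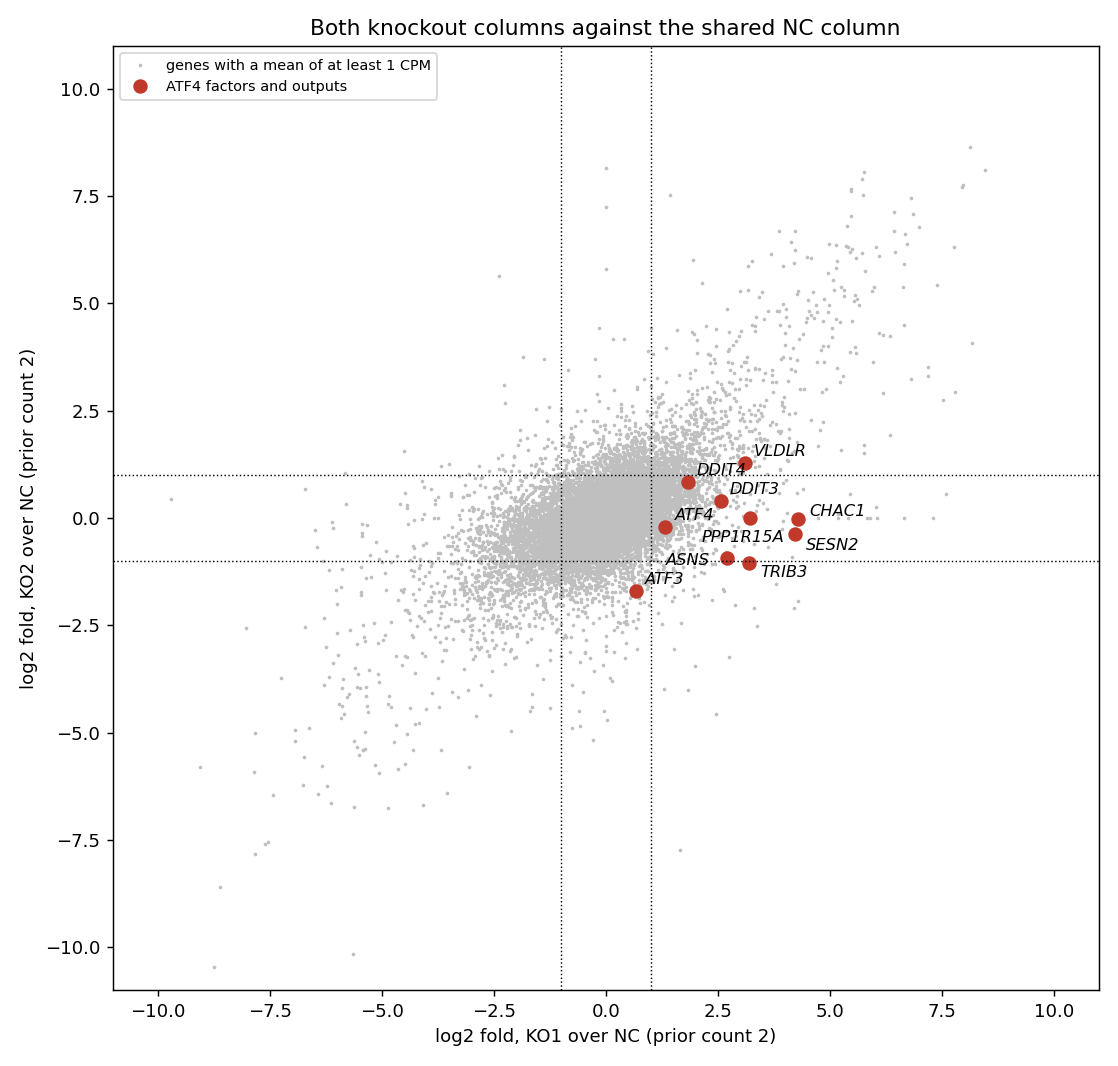
Log2 fold of KO1 over NC (horizontal axis) against log2 fold of KO2 over NC (vertical axis) for genes with a mean of at least 1 CPM, with the 10 genes in red and dotted lines at the size threshold. Both axes share the NC column, so the slant of the cloud is no result; 9 of the 10 genes lie right of the right-hand line, and 7 of the 10 lie between the horizontal lines.

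Among the transcription factors, ATF4 (ENSG00000128272, chr22:39519695-39522685, plus strand, hg38) had the smallest difference of the 9 genes that passed in KO1. It had 22333 counts or 966 CPM in KO1, 9263 counts or 331 CPM in KO2 and 10710 counts or 384 CPM in NC. KO1 stood apart, and KO2 and NC were close. The fold was 2.52 (2.46 to 2.58) for KO1 over NC, and 2.92 (2.85 to 2.99) for KO1 over KO2. ATF4 was 1.16-fold lower (1.13 to 1.19) in KO2 than in NC, but its log2 fold was 0.13 once the median of the 100 measured genes nearest to it was removed. On the deposited TPM the log2 fold of KO1 over NC was 0.91, short of the threshold, where the scaling shifted the median of all genes by -0.36. In KO1, ATF4 ranked 1423 from the top of all 14522 genes by log2 fold. Reads from near-identical copies may be split, and the pseudogene ATF4P3 had 206 counts in KO1, 55 in KO2 and 64 in NC, small beside those of ATF4.

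DDIT3 (ENSG00000175197, chr12:57516588-57520517, minus strand) encodes CHOP, a C/EBP-family factor that ATF4 induces and that acts in stress-induced cell death. It had 134 CPM in KO1, 29.6 CPM in KO2 and 22.6 CPM in NC, highest in KO1 with the other columns close together. The fold was 5.93 (5.44 to 6.47) for KO1 over NC, 1.31 (1.18 to 1.46) for KO2 over NC and 4.52 (4.19 to 4.89) for KO1 over KO2. DDIT3 overlaps the genes MARS (now MARS1, a tRNA synthetase) by 355 exonic bases and MBD6 by 58, both on the opposite strand. MARS had 3413 counts in KO1, 2068 in KO2 and 3453 in NC, against 3096, 829 and 630 counts of DDIT3 in the same columns. The strand setting of the authors' counting is not given in the sources used here, so reads from the shared bases may be in either gene's count.

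ATF3 (ENSG00000162772, chr1:212565334-212620777, plus strand) is a bZIP factor induced by ATF4 and by many other stresses, and it can repress the genes it binds. It was the lowest of the 10 genes by TPM in both knockout columns. ATF3 had 473 counts or 20.5 CPM in KO1, 110 counts or 3.93 CPM in KO2 and 359 counts or 12.9 CPM in NC. KO1 and NC were near each other and KO2 lay apart, the only such pattern of the 10. The fold was 1.59 (1.38 to 1.83) for KO1 over NC, short of the threshold. ATF3 was 3.28-fold lower (2.64 to 4.09) in KO2 than in NC, and 5.21-fold higher (4.23 to 6.47) in KO1 than in KO2.

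Of the feedback genes, TRIB3 (ENSG00000101255, chr20:362835-397559, plus strand) encodes a pseudokinase that ATF4 and CHOP induce and that dampens their activity. It had 16935 counts or 732 CPM in KO1, 1084 counts or 38.7 CPM in KO2 and 2225 counts or 79.7 CPM in NC. The columns did not lie near each other, and KO2 was the lowest. The fold was 9.19 (8.79 to 9.61) for KO1 over NC and 18.9 (17.8 to 20.1) for KO1 over KO2. TRIB3 was 2.06-fold lower (1.91 to 2.22) in KO2 than in NC, just past the size threshold. With the median of its 100 nearest genes removed, its log2 fold for KO2 over NC was -0.91, and it no longer passed.

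PPP1R15A (ENSG00000087074, chr19:48872392-48876057, plus strand) encodes GADD34, which brings protein phosphatase 1 to phosphorylated eIF2 and so restores translation. It had 43646 counts or 1888 CPM in KO1, 5673 counts or 203 CPM in KO2 and 5661 counts or 203 CPM in NC. KO2 and NC could not be told apart beyond counting error, with a fold of 0.999 (0.962 to 1.04) for KO2 over NC. The fold was 9.31 (9.05 to 9.57) for KO1 over NC. By TPM, PPP1R15A was the most abundant of the 10 genes in KO1, while ATF4 was in KO2 and NC. Its constitutive counterpart PPP1R15B, which brings the same phosphatase to eIF2 without stress, had 189.6 CPM in KO1, 122 CPM in KO2 and 89.4 CPM in NC, a 2.12-fold difference for KO1 over NC.

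The metabolic enzymes CHAC1 and ASNS follow. CHAC1 (ENSG00000128965, chr15:40952962-40956519, plus strand) breaks down glutathione and had the largest difference of the 10 genes between KO1 and NC. It had 6735 counts or 291 CPM in KO1, 407 counts or 14.5 CPM in KO2 and 413 counts or 14.8 CPM in NC. As with PPP1R15A, KO2 and NC lay together, with a fold of 0.982 (0.854 to 1.13) for KO2 over NC. The fold was 19.7 (17.8 to 21.8) for KO1 over NC and ranked 121 from the top of all 14522 genes.

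ASNS (ENSG00000070669, chr7:97852118-97872542, minus strand) makes asparagine from aspartate and glutamine and is a standard reporter of ATF4 activity. It had 19759 counts or 855 CPM in KO1, 1926 counts or 68.8 CPM in KO2 and 3666 counts or 131 CPM in NC. KO1 was high and KO2 lay below NC. The fold was 6.51 (6.28 to 6.74) for KO1 over NC and 12.4 (11.9 to 13.0) for KO1 over KO2. Both include ASNS-214, a transcript counted in KO1 alone, and without it were 2.97 (2.86 to 3.09) and 5.68 (5.40 to 5.97). Leaving it out takes counts from KO1 only, so lower folds were bound to follow. ASNS was 1.91-fold lower (1.81 to 2.02) in KO2 than in NC, just short of the size threshold. The 100 measured genes nearest to ASNS on its chromosome had a median log2 fold of 0.41 in KO1 and 0.48 in KO2 over NC, the largest such regional shift upward among the 10. With it removed, the log2 fold of ASNS was 2.29 for KO1 over NC and -1.42 for KO2 over NC.

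Both inhibitors of mTORC1, the kinase complex that drives growth, were higher in KO1. SESN2 (ENSG00000130766, chr1:28259527-28282491, plus strand) is a leucine-sensing sestrin that restrains mTORC1 through the GATOR complexes. SESN2 had 9595 counts or 415 CPM in KO1, 483 counts or 17.2 CPM in KO2 and 619 counts or 22.2 CPM in NC. The fold was 18.7 (17.3 to 20.3) for KO1 over NC. At 24.1 (22.0 to 26.4), its fold of KO1 over KO2 was the largest of the 10 genes. SESN2 was 1.29-fold lower (1.14 to 1.45) in KO2 than in NC.

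DDIT4 (ENSG00000168209, chr10:72273920-72276036, plus strand) encodes REDD1, which restrains mTORC1 through the TSC complex and also answers to hypoxia and glucocorticoids. It had 13215 counts or 572 CPM in KO1, 8037 counts or 287 CPM in KO2 and 4475 counts or 160.3 CPM in NC, an even ladder unlike that of SESN2. The fold was 3.57 (3.45 to 3.69) for KO1 over NC and 1.79 (1.73 to 1.86) for KO2 over NC. The fold of KO1 over KO2, 1.99 (1.94 to 2.05), fell just short of the size threshold, and DDIT4 was the 1 gene of the 10 that did not pass there.

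VLDLR (ENSG00000147852, chr9:2621834-2660053, plus strand) is a lipoprotein and reelin receptor that ATF4 induces when the endoplasmic reticulum is stressed. It had 2658 counts or 115 CPM in KO1, 907 counts or 32.4 CPM in KO2 and 369 counts or 13.2 CPM in NC. Both knockout columns were above NC and KO1 was above KO2. The fold was 8.70 (7.80 to 9.72) for KO1 over NC, 2.45 (2.17 to 2.77) for KO2 over NC and 3.55 (3.29 to 3.83) for KO1 over KO2. VLDLR shares 738 exonic bases with VLDLR-AS1 on the opposite strand, which had 454 counts in KO1, 14 in KO2 and 13 in NC. Without the strand setting, the reads of this pair cannot be told apart.

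Set against ATF4 itself, most outputs differed more between KO1 and NC than their regulator's own RNA. The log2 fold minus that of ATF4 was 2.96 for CHAC1, 2.89 for SESN2, 1.89 for PPP1R15A, 1.87 for TRIB3 and 1.78 for VLDLR. It was 1.37 for ASNS, 1.23 for DDIT3, 0.50 for DDIT4 and -0.67 for ATF3. The ASNS value includes ASNS-214, counted in KO1 alone. Without that transcript the log2 fold of ASNS was 1.57, beside 1.33 for ATF4, but a fall was certain because only KO1 lost counts.

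By TPM, a level per length, the order of the genes also differed between columns. In KO1 it ran from PPP1R15A (1001 TPM) through ASNS (692), ATF4 (662), DDIT4 (421), TRIB3 (364), CHAC1 (241), DDIT3 (163), SESN2 (149) and VLDLR (20.5) to ATF3 (14.5). In KO2 it ran from ATF4 (311 TPM) through DDIT4 (289.8), PPP1R15A (145), ASNS (71.5), DDIT3 (51.9), TRIB3 (26.2), CHAC1 (14.1), SESN2 (8.30) and VLDLR (7.72) to ATF3 (3.84). In NC it ran from ATF4 (353 TPM) through DDIT4 (155), PPP1R15A (138), ASNS (120.2), TRIB3 (51.1), DDIT3 (35.9), CHAC1 (15.7), ATF3 (10.6) and SESN2 (10.2) to VLDLR (2.89). ATF4 thus led in KO2 and NC and came after PPP1R15A and ASNS in KO1. The place of ASNS above ATF4 in KO1 rests on ASNS-214, which held 364 TPM there and 0 in KO2 and NC. Neighbours whose counting intervals overlapped were SESN2 and VLDLR in KO2, and ATF3 and SESN2 in NC.

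The transcripts behind these sums differed between columns for CHAC1, ASNS, ATF4, DDIT3 and ATF3. The table's transcript counts are estimates for transcripts that share most of their sequence, so a share can move between near-identical models. CHAC1-205 held 99.1% of CHAC1 counts in KO1, 0.737% in KO2 and 80.6% in NC, while CHAC1-202, which starts further upstream, held 0.386% in KO1, 64.6% in KO2 and 0.484% in NC. The summed CHAC1 count lay together in KO2 and NC. With the most abundant transcript only, CHAC1-205, the log2 fold of CHAC1 for KO2 over NC was -6.04. That value rests on 3 counts of CHAC1-205 in KO2, against 333 in NC. The CHAC1 stretch printed above lies upstream of the CHAC1-205 start and downstream of the CHAC1-202 start. ASNS-214 had 10735 counts in KO1 and 0 in both KO2 and NC. ASNS-202 had 5293 counts in KO1, 956 in KO2 and 1490 in NC. The values of ASNS without ASNS-214, given above, were a choice made after its counts were seen. They are no separate estimate of the gene's fold, since a share that moves between models leaves the gene's sum unchanged.

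ATF4-201 held 51.9% of ATF4 counts in KO1, 36.9% in KO2 and 27.8% in NC. ATF4-202 and ATF4-203 held the rest, each with its highest share in NC. DDIT3-201 held 36.7% of DDIT3 counts in KO1, 66.2% in KO2 and 40% in NC. ATF3-208, an intron-retaining transcript, held 19.7% of ATF3 counts in KO1, 21.8% in KO2 and 9.19% in NC. For TRIB3, PPP1R15A, SESN2 and DDIT4, by contrast, 1 transcript held more than 94% of counts in every column. VLDLR-203 held 86.2% of VLDLR counts in KO1, 83.1% in KO2 and 91.1% in NC.

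**Figure D3:**
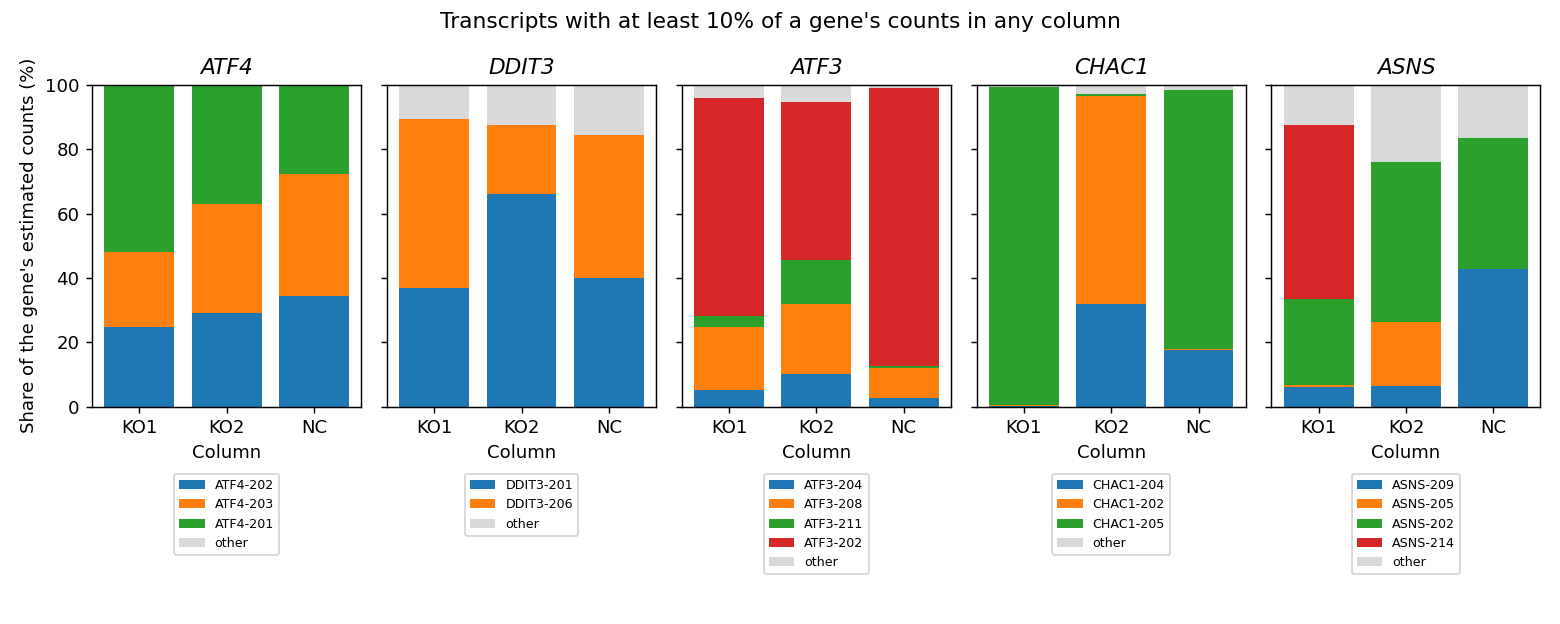
Share of each gene's estimated counts (percent) in the KO1, KO2 and NC columns, for ATF4, DDIT3, ATF3, CHAC1 and ASNS, with transcripts of at least 10% in any column coloured and the rest grey. CHAC1-205 fills KO1 and most of NC but not KO2, and ASNS-214 appears in KO1 alone.

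With both knockout columns as 1 group against NC, the quasi-likelihood test of edgeR (two-sided F test, Benjamini-Hochberg over all genes) called 48 of 18289 genes, or 0.262%, of which 19 rose and 29 fell. It called 0 of the 10 genes. At an unadjusted p under 0.05 it held 3 of the 10, VLDLR, CHAC1 and SESN2, and 1487 genes in all, and DESeq2 also called 0 of the 10. VLDLR had the lowest adjusted p of the 10, 0.356 by edgeR, with a log2 fold of 2.49 and higher in 2 of 2 knockout columns. For CHAC1 the edgeR adjusted p was 0.494 and for SESN2 0.547, and both were higher in 1 of 2 knockout columns. This fit has 1 residual degree of freedom, which comes from the distance between KO1 and KO2. The spread of each gene is moderated toward a trend over all genes, and NC is assumed to vary likewise. Without the filter on low counts, edgeR called CHAC1 (adjusted p 0.00162) and SESN2 (0.00193). A p that misses the threshold does not show that the groups are alike.

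The other genes of the pathway were taken as lists chosen by function, with earlier results of these data known. Their counts can be read against all genes, of which 15.2% were higher and 17.7% lower in KO1, and 11.0% higher and 10.1% lower in KO2. Between the knockout columns, 11.1% of all genes were higher in KO1 than in KO2 and 15.1% lower. None of the list genes described below was called by edgeR, so their values are single-column levels. Upstream of ATF4, few of the eIF2 kinases, eIF2B subunits and phosphatase partners passed the size rule against NC. Of 21 genes, 1 was higher in KO1 than in NC (PPP1R15B, above), 0 were lower and 20 passed in neither direction, with a median log2 fold of 0.27. Short of the threshold, differences beyond counting error went both ways. Of the kinases in KO1, EIF2AK1 was 1.81-fold higher than in NC. EIF2AK2, EIF2AK3 and EIF2AK4 were 1.39-fold, 1.35-fold and 1.60-fold lower. In KO2, EIF2AK1 was 1.77-fold and EIF2AK2 1.61-fold higher than in NC, EIF2AK3 was 1.23-fold lower, and EIF2AK4 was within counting error. In KO2, 1 was higher than in NC, DNAJC3, an inhibitor of eIF2 kinases and chaperone partner, with 48.3 CPM in KO1, 68.3 CPM in KO2 and 32.9 CPM in NC. Between the knockout columns, 1 was higher in KO1, EIF2S2, with 507 CPM in KO1 and 198 CPM in KO2. The 1 lower in KO1 than in KO2 was the kinase EIF2AK2, with 58.6 CPM in KO1 and 131 CPM in KO2.

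Of the bZIP partners of ATF4, 20 of 21 had a mean of at least 1 CPM. In KO1, 6 were higher and 2 lower than in NC, and in KO2, 1 was higher and 5 lower. CEBPG, which pairs with ATF4 on composite elements, had 285 CPM in KO1, 44.6 CPM in KO2 and 55.2 CPM in NC. CEBPB, another C/EBP partner, had 690 CPM in KO1, 114 CPM in KO2 and 271 CPM in NC. ATF5, a close relative of ATF4, had 124 CPM in KO1, 67.3 CPM in KO2 and 47.2 CPM in NC. CEBPB thus shared the order of TRIB3 and ASNS, while ATF5 shared that of DDIT4. FOS had 12.1 CPM in KO1, 5.53 CPM in KO2 and 2.08 CPM in NC, and BATF3 had 13.1 CPM in KO1, 4.93 CPM in KO2 and 19.2 CPM in NC.

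Other ATF4 targets of amino acid metabolism differed between the knockout columns. Of 23 measured genes, 14 were higher and 0 lower in KO1 than in NC, with a median log2 fold of 1.33. In KO2, 2 were higher and 10 lower than in NC, with a median of -0.69. Between the knockout columns 20 of the 23 were higher in KO1 than in KO2, where 11.1% of all genes were. None was lower, where 15.1% of all genes were. CTH, the transsulfuration enzyme that makes cysteine, had 251 CPM in KO1, 9.39 CPM in KO2 and 9.35 CPM in NC, the flat KO2 and NC pattern of CHAC1. SLC38A2, a neutral amino acid transporter, had 1222 CPM in KO1, 471 CPM in KO2 and 153 CPM in NC. PHGDH, the first enzyme of serine synthesis, had 21.9 CPM in KO1, 1.21 CPM in KO2 and 0 in NC, at least 203.6-fold higher in KO1 and at least 11.29-fold higher in KO2 against a floor of 3 counts in the NC column, before counting error. SLC7A11, the cystine transporter, had 139 CPM in KO1, 25.7 CPM in KO2 and 123 CPM in NC, near NC in KO1 and low in KO2 as ATF3 was. ASS1, which makes argininosuccinate, had 53.9 CPM in KO1, 17.1 CPM in KO2 and 83.5 CPM in NC.

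The list of 14 tRNA charging genes holds aminoacyl-tRNA synthetases and the tRNA exporter XPOT. In KO1, 3 were higher and 0 lower than in NC, with a median log2 fold of 0.52, and in KO2, 0 were higher and 2 lower, with a median of -0.61. The 3 of 14 in KO1 over NC is close to the share over all genes. Between the knockout columns, 7 of the 14 were higher in KO1 than in KO2, where 11.1% of all genes were. On the other side 0 were lower, where 15.1% of all genes were. GARS1, for glycine, had 1059.7 CPM in KO1, 213 CPM in KO2 and 260.1 CPM in NC. AARS1, for alanine, had 362 CPM in KO1, 80.6 CPM in KO2 and 160.1 CPM in NC, and YARS1, for tyrosine, had 367 CPM in KO1, 99.9 CPM in KO2 and 171 CPM in NC. The 2 that were lower in KO2 were WARS1 and SARS1. WARS1, for tryptophan, had 179.7 CPM in KO1, 74.1 CPM in KO2 and 287 CPM in NC. SARS1, for serine, had 394 CPM in KO1, 128 CPM in KO2 and 309 CPM in NC.

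Among the other stress and signalling targets, 13 of 18 measured genes were higher and 0 lower in KO1 than in NC, with a median log2 fold of 1.77. In KO2, 4 were higher and 3 lower, with a median of 0.23. GDF15, a stress hormone, had 542 CPM in KO1, 36.7 CPM in KO2 and 3.62 CPM in NC. VEGFA, the angiogenic factor, had 474 CPM in KO1, 139 CPM in KO2 and 39.1 CPM in NC. Both followed the order of VLDLR and DDIT4, with KO2 between KO1 and NC. ADM2, a peptide hormone of the calcitonin family, had 112 CPM in KO1, 3.28 CPM in KO2 and 6.20 CPM in NC. TXNIP, which inhibits thioredoxin, had 1087 CPM in KO1, 105 CPM in KO2 and 249.9 CPM in NC. NUPR1, a stress-induced chromatin protein, had 9.43 CPM in KO1, 0.464 CPM in KO2 and 15.8 CPM in NC.

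The ATF6 and XBP1 arms of the unfolded protein response, which run beside ATF4, had a median in KO1 between those of the tRNA charging genes and the amino acid targets. Of 23 genes, 8 were higher and 0 lower in KO1 than in NC (median log2 fold 0.59), and 2 were higher and 0 lower in KO2 (median 0.42). ERN1, the sensor that splices XBP1, had 212 CPM in KO1, 23.8 CPM in KO2 and 12.9 CPM in NC. HSPA5, the chaperone BiP, had 2921 CPM in KO1, 1187 CPM in KO2 and 886 CPM in NC. DNAJB9, its co-chaperone, had 59.2 CPM in KO1, 22.3 CPM in KO2 and 8.24 CPM in NC. SYVN1, a ubiquitin ligase of misfolded proteins, had 108 CPM in KO1, 104 CPM in KO2 and 50.2 CPM in NC.

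Close paralogs of the 10 genes were also measured, and 6 of 11 were higher and 0 lower in KO1 than in NC, while 3 were higher and 0 lower in KO2. TRIB1 had 67.4 CPM in KO1, 13.9 CPM in KO2 and 23.8 CPM in NC, the order of TRIB3 on a smaller scale. TRIB2 had 37.2 CPM in KO1, 105 CPM in KO2 and 38.3 CPM in NC, so in that paralog KO2 was the high column. CHAC2, which degrades glutathione at a steady low rate, had 20.6 CPM in KO1, 9.92 CPM in KO2 and 8.06 CPM in NC.

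Several of the 10 genes also answer to p53, hypoxia or glucocorticoids, and lists for these were set beside them. Of 19 measured p53 targets, 3 were higher and 5 lower in KO1 than in NC (median log2 fold -0.16), and 2 were higher and 0 lower in KO2 (median 0.27). The 3 higher in KO1 and the 2 higher in KO2 are near the shares over all genes. Of the 3 higher in KO1, CDKN1A, the cell cycle inhibitor p21, had 271 CPM in KO1, 194 CPM in KO2 and 134 CPM in NC. Of the 5 lower in KO1, ZMAT3 had 4.93 CPM in KO1, 15.6 CPM in KO2 and 14.4 CPM in NC. Of 14 hypoxia targets, 1 was higher and 1 lower in KO1 (median 0.089), and 2 were higher and 0 lower in KO2 (median 0.48), where 2 of 14 is near the share over all genes. The 1 higher in KO1, ANGPTL4, had 28.3 CPM in KO1, 10.2 CPM in KO2 and 4.37 CPM in NC. The 1 lower in KO1, HILPDA, had 1.90 CPM in KO1, 7.46 CPM in KO2 and 9.995 CPM in NC. Set against KO2, 1 of the 14 hypoxia targets was higher in KO1 and 4 were lower, where 11.1% of all genes were higher and 15.1% lower. In the same comparison 2 of the 19 p53 targets were higher in KO1 and 7 were lower. Of 8 measured glucocorticoid targets, 4 were higher and 0 lower in KO1 (median 1.11), and 1 was higher and 0 lower in KO2 (median 0.19). Against KO2, 3 of these 8 were higher in KO1 and 0 were lower. ERRFI1, an EGFR inhibitor, had 1133 CPM in KO1, 239.9 CPM in KO2 and 66.1 CPM in NC.

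**Figure D4:**
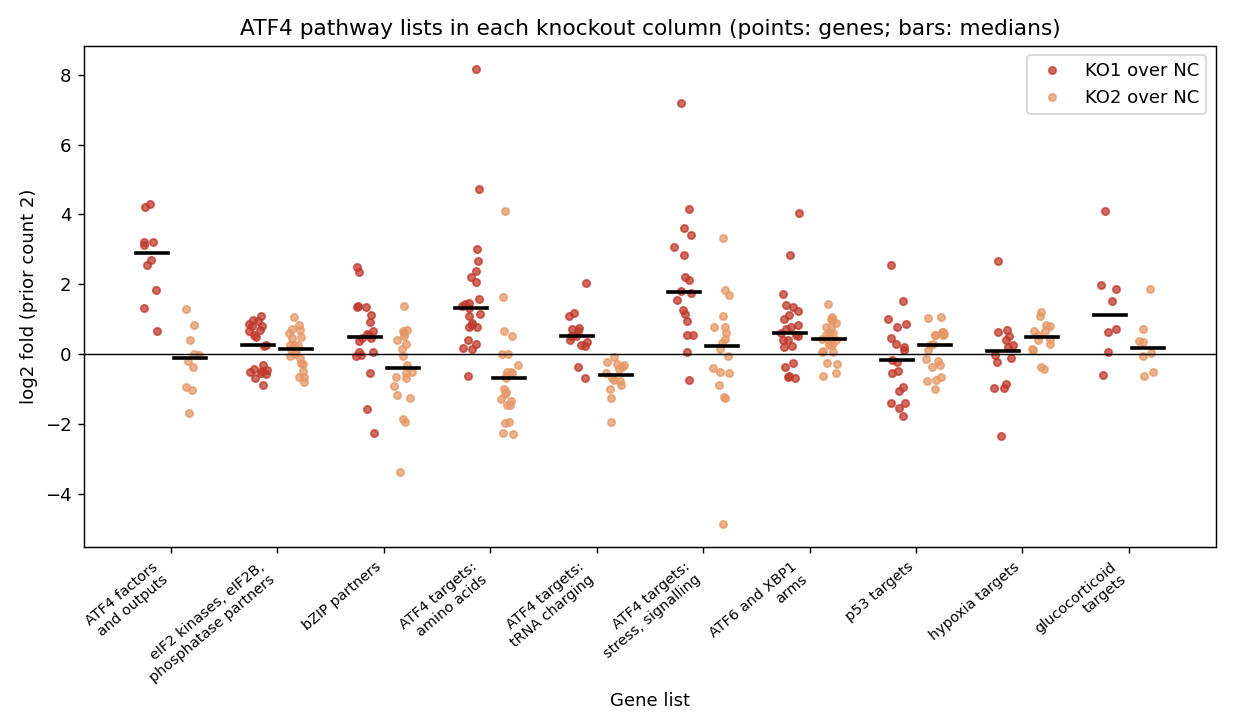
Log2 fold (prior count 2) of each gene over NC, KO1 left and KO2 right within each list, with bars at the medians. The 10 genes have a median of 2.91 in KO1 and -0.12 in KO2; the highest amino acid gene is PHGDH, at 0 in NC, whose plotted fold depends on the prior count.

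The genes whose pattern lay closest to that of ATF4 and of CHAC1 were sought among 11132 others with a mean of at least 5 CPM, by Euclidean distance between log2 CPM centred over the 3 columns. Among the closest to ATF4 were RMND1 (distance 0.030), CHIC2 (0.031), PDCD1LG2 (0.035) and ZNF844 (0.037). CHAC1 had fewer near neighbours, with SESN2 at 0.25, UPP1 at 0.29, CTH at 0.35, NHSL1-AS1 at 0.53 and ALOX5AP at 0.54. UPP1, uridine phosphorylase, had 1478 CPM in KO1, 97.9 CPM in KO2 and 89.7 CPM in NC. With 3 columns such likeness is a description and no measure of shared control.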

How the data were processed

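RNA-seq of 6 samples in 3 groups was deposited as 1 table of 199167 transcripts with 1 column per group and unit. Per the file headers it gives a count and a TPM for every transcript. The authors' counts were read as estimated counts per transcript, deposited as whole numbers, because overlapping transcripts of a gene carry separate values. TPM, as deposited by the authors, served for levels between genes. Per the submitters' processing notes, CASAVA, Bowtie2, featureCounts and hg38 were used; versions and roles, the tool behind the transcript estimates and its strand setting are not given in the sources used here. Count and TPM columns were matched to groups by name, and 3 other columns, holding FPKM, were not used.

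Counts were summed per gene ID (current symbols for 57392 of 58174 IDs). Transcript names are those of GENCODE 29, which holds 57836 of the IDs and places 196254 transcripts at the same position. TMM factors came from edgeR 4.0.16 (R 4.3.3). The size rule between single columns has no p-value: a log2 fold of at least 1 in size with a prior count of 2, an exact 95% Clopper-Pearson interval (conditional on the summed count) that excludes equality, and a mean of at least 1 CPM. Intervals cover counting error only, since fragments are not independent molecules. A column at 0 was set to a floor of 3 counts. The one test was edgeR's quasi-likelihood F test after filterByExpr, KO1 and KO2 against NC, with Benjamini-Hochberg adjusted p under 0.05. Its p-values rest on the spread between the KO1 and KO2 columns, moderated over all genes, and on no replicates. DESeq2 1.42.0 and limma 3.58.1 were alternatives. Scripts were tested on simulated data.

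The 10 genes and all lists were chosen with earlier results of these data known. The rule for named genes took all 10 genes, and of each list up to 3 genes per direction with the largest log2 fold in KO1 over NC among those that passed and up to 2 in KO2 over NC, with a mean of at least 5 CPM. It also took ARID1A, the 5 genes closest to ATF4 and to CHAC1, and transcripts with at least 10% of a gene's counts. Some genes that the rule names are left to their list's count. One gene that the rule names is not reported here.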

Additional observations from a re-analysis of the deposited data

Results flagged for a closer look

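For 5 of the 10 genes the KO1 and KO2 columns, which carry the same labelled genotype, lay on opposite sides of the shared NC column, with counting intervals that excluded equality on each side. The log2 fold over NC was 1.33 in KO1 and -0.21 in KO2 for ATF4, and 0.67 in KO1 and -1.69 in KO2 for ATF3. It was 3.20 in KO1 and -1.04 in KO2 for TRIB3, 2.70 in KO1 and -0.93 in KO2 for ASNS, and 4.22 in KO1 and -0.36 in KO2 for SESN2. With 1 column per group the difference between the knockout effects was not tested. For ATF4 the KO2 side depends on the setting: its log2 fold over NC was 0.13 in KO2 with the median of the nearest genes removed.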

How the results depend on the processing

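No paired analysis was possible because the columns carry no replicate number, and leaving out replicates was not run because each group has 1 column. Over 12 alternatives, 8 to 10 of the 10 genes were higher in KO1 than in NC, and 8 to 10 higher in KO1 than in KO2. In KO2 over NC, 3 genes passed, against 5 with a fold threshold of 1.5 and 1 with a threshold of 3, as their construction implies. On deposited TPM 2 passed: TRIB3 fell short of the threshold, with 26.2 TPM in KO2 and 51.1 TPM in NC. With the most abundant transcript only 4 passed, the added gene being CHAC1. Of 243 reruns of the 10 genes' log2 folds, 163 stayed within the counting interval, 80 moved and 0 reversed a called direction. Below the threshold, the sign of KO2 over NC changed for ATF4 (0.19 with the most abundant transcript), DDIT3 (-0.66 likewise), PPP1R15A and CHAC1 (0.021 with the median of the nearest genes removed). CHAC1 went to -6.04, past the threshold, with the most abundant transcript only. Removing the median of the nearest genes made 10 genes pass in KO1 and put TRIB3 in KO2 at -0.91, short of the threshold. Total-count scaling shifted the median log2 fold of all genes by -0.22 in KO1 over NC, and deposited TPM by -0.36. Of 720 reruns of list counts, 594 stayed within 1.5 times the main count.

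The edgeR count was the least stable. It was 48 genes, against 0 with total-count scaling (1177 at an unadjusted p under 0.05), 4 with DESeq2 size factors, 6 with limma-voom, 293 with DESeq2 and 493 with no filter, where 2 of the 10 genes were called; the cause was not tested. The lowest summed count of the 10 genes was 110, for ATF3 in KO2, and the effect of depth was not tested. Some transcripts had far fewer, such as CHAC1-205 with 3 counts in KO2 and CHAC1-202 with 2 in NC. The missing replicate error limits every comparison.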
